A study of Saccharomyces cerevisiae with 4 samples.

Results

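The 10 genes described here handle inorganic phosphate in Saccharomyces cerevisiae. They comprise the phosphatase genes PHO5 and PHO8, the transporter genes PHO84 and PHO89, the polyphosphate polymerase genes VTC1, VTC3 and VTC4, and the regulators SPL2, PHO81 and PHO4. They were chosen by name, as genes with a probe set that names no other gene, and all 10 were found among the 5656 genes tested. Transcript levels were measured with the Affymetrix yeast array on total RNA from wild type SEY6210 (2 arrays) and from pmt1 pmt2 cells of the same background (2 arrays). The design gives each array a biological sample of its own. Both strains were kept overnight, brought to an optical density of 0.1, allowed to reach 0.45 and then cultured for 3 hours more. The culture medium, which sets the supply of phosphate, and the part of PMT1 and PMT2 that was altered are not given in the sources used here.

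Yeast cells sense phosphate through the PHO pathway. When phosphate is plentiful, the cyclin-dependent kinase Pho85 with its cyclin Pho80 phosphorylates the activator Pho4, which is then kept out of the nucleus. When phosphate runs short, Pho81 inhibits this kinase, and Pho4 turns on genes for secreted phosphatases, high-affinity transporters and the vacuolar polyphosphate polymerase, which stores phosphate as long chains. PMT1 and PMT2 encode mannosyltransferases of the endoplasmic reticulum that modify secretory proteins.

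Signals are given in the linear units of the deposited table, and a level is read only against the same probe set on the other arrays, never against another gene. Background was set at 26.2, the top value among 19 control probe sets for transcripts of bacteria and mouse. PMT1 measured 1177.7 and 808.7 in wild type against 111.4 and 103.8 in pmt1 pmt2, and PMT2 measured 2645.5 and 2770.8 against 11.9 and 15.5. Both targeted genes were thus low on the arrays labelled as mutant. Median signals of the arrays lay between 54.4 and 66.1, highest on pmt1 pmt2 array 2. For the actin control, the signal at the tail of the transcript over that at its start, a sign of RNA quality, was 2.99 on wild type array 1 and 3.15 on pmt1 pmt2 array 1. On wild type array 2 and pmt1 pmt2 array 2 the ratio was 1.38 and 1.32. Array number therefore goes with a technical difference, and each difference between genotypes is also given within arrays 1 and within arrays 2.

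No phosphate gene passed the test. Of the 10, 0 were called by limma at a Benjamini-Hochberg adjusted p under 0.05, where 0.389% of all tested genes (22 genes) were, and 0 at an unadjusted p under 0.05, where 7.18% of all genes were. At that unadjusted threshold 4 of the 10 passed with array number as a block (PHO8, PHO89, SPL2 and PHO4), when 1016 of all 5656 genes did. After quantile normalization or centring 2 passed (PHO8 and PHO89), when 509 or 488 of all genes did. Adjusted p over the 10 genes ran from 0.767 (PHO89) to 0.9996 (VTC1). The 95% interval of every one of the 10 log2 changes held 0. Among the 9 genes above background, these intervals reached at most 3.43-fold higher in pmt1 pmt2, for PHO8, and a ratio of at least 0.25, for PHO4. These are the outermost ends over the 9 genes, not a limit of detection, and other genes had closer ends, such as 0.55 and 1.82 for VTC1. With 2 arrays per group, a ratio inside a gene's own interval is not excluded for that gene. A p that misses the threshold does not show that a transcript was at the same level in both strains. In whole cultures, fewer cells expressing a gene and less RNA per cell cannot be told apart.

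**Figure D1:**
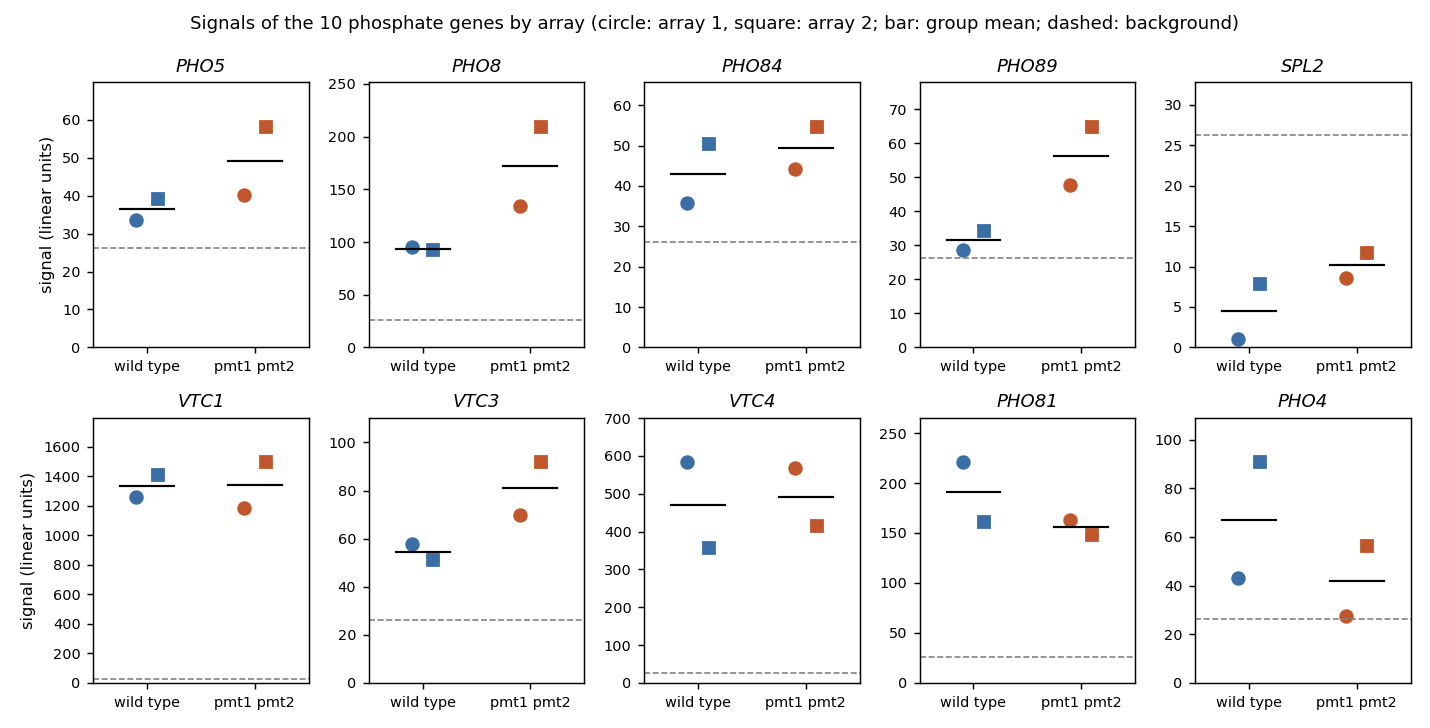
Signal of each of the 10 phosphate genes (linear units, each vertical axis from 0) on the wild type (blue) and pmt1 pmt2 (orange) arrays, with circles for array 1, squares for array 2, bars for group means and a dashed line for the background of 26.2. PHO8, PHO89, PHO5 and VTC3 lie higher on both mutant arrays, SPL2 lies below background on all 4 arrays, and PHO4 and VTC4 differ by array number.

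The vacuolar alkaline phosphatase gene PHO8 (YDR481C) had separate groups. It measured 95.1 and 92.1 on wild type arrays 1 and 2, against 134.6 and 209.6 on the corresponding pmt1 pmt2 arrays. Both mutant arrays lay above both wild type arrays, which were nearly equal, whereas the mutant arrays differed 1.56-fold from each other. The fitted difference was 1.79-fold, a log2 change of 0.84 ± 0.38 (SE) with limma adjusted p = 0.773. The log2 difference was 0.50 within arrays 1 and 1.19 within arrays 2. PHO5 (YBR093C), the repressible acid phosphatase of the periplasm and the classical reporter of the pathway, lay little above background on every array. It measured 33.5 and 39.2 in wild type against 40.2 and 58.2 in pmt1 pmt2. The groups did not overlap, but the gap between the closest arrays of the groups was small beside the spread of the mutant arrays. Its log2 change was 0.42 ± 0.38 (SE), with limma adjusted p = 0.994.

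PHO89 (YBR296C) encodes the sodium-coupled high-affinity transporter, which is also known to respond to alkaline pH and calcineurin signalling. Its signal was 28.6 and 34.3 in wild type, while pmt1 pmt2 gave 47.6 and 64.9. Groups were separate, and the lowest value lay just above background. The difference was 1.77-fold, a log2 change of 0.83 ± 0.37 (SE) with limma adjusted p = 0.767, and with 0.73 and 0.92 it was similar within both array numbers. This was the smallest p among the 10 genes, at rank 478 of 5656. PHO84 (YML123C) encodes the proton-coupled high-affinity transporter, the main route of uptake when phosphate is scarce. It measured 35.7 and 50.3 in wild type against 44.2 and 54.7 in pmt1 pmt2, so the groups overlapped. Its log2 change was 0.21 ± 0.38 (SE), with limma adjusted p = 0.994, and the log2 change was −0.033 without wild type array 1. The pair of high-affinity transporters thus gave a separated and an overlapping pattern, although the difference between their changes was not tested.

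Subunits of the vacuolar transporter chaperone complex, which makes polyphosphate and moves it into the vacuole, gave unlike values. VTC1 (YER072W), for its small membrane subunit, measured 1263.0 and 1409.1 in wild type against 1187.3 and 1498.6 in pmt1 pmt2. The mutant arrays lay on either side of the wild type arrays, and the group means were 1336 ± 103 and 1343 ± 220 (SD, n = 2). The 95% interval of its ratio ran from 0.55 to 1.82. VTC3 (YPL019C), for a subunit with a phosphate-sensing SPX domain, measured 57.8 and 51.0 in wild type against 69.8 and 91.9 in pmt1 pmt2. Its groups were separate, at a log2 change of 0.56 ± 0.36 (SE) and limma adjusted p = 0.927. VTC4 (YJL012C) encodes the catalytic subunit and has 2 probe sets of its own on the array. The one with the higher mean measured 584.0 and 356.7 in wild type against 567.8 and 414.2 in pmt1 pmt2, a log2 change of 0.088 ± 0.41 (SE) with limma adjusted p = 0.994.

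The probe sets of VTC4 split by array number rather than by genotype. On the probe set used, array 1 was 1.64-fold above array 2 in wild type, and 1.37-fold above it in pmt1 pmt2. The other probe set ran the opposite way, at 371.6 and 569.3 in wild type against 295.4 and 578.1 in pmt1 pmt2, so that array 2 was 1.53-fold and 1.96-fold above array 1. The actin ratio also split the arrays by number (2.99 and 3.15 against 1.38 and 1.32), and the part of RNA quality in the VTC4 pattern was not tested. By genotype the probe sets gave log2 changes of 0.088 and −0.15, and for neither did the groups separate. Their positions along the transcript were not analysed here.

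**Figure D2:**
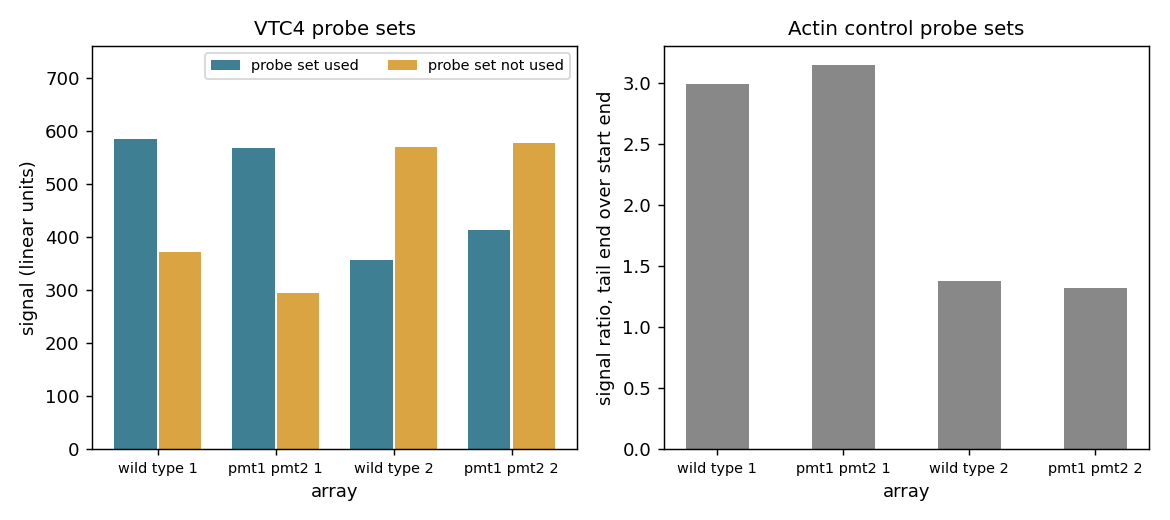
Left, signal (linear units, axis from 0) of the VTC4 probe sets on each array, ordered by array number; right, actin control signal at the tail of the transcript over that at its start, on the same arrays. The probe set used is higher on the arrays numbered 1, the one not used is higher on those numbered 2, and the actin ratio is 2.99 and 3.15 on the former and 1.38 and 1.32 on the latter.

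Among the regulators, the activator gene PHO4 (YFR034C) had the largest difference toward lower values. It measured 43.1 and 90.8 in wild type against 27.4 and 56.3 in pmt1 pmt2. The groups overlapped, because arrays 2 were above arrays 1 by 2.11-fold in wild type and 2.05-fold in pmt1 pmt2. Within arrays 1 and arrays 2 the mutant was lower by nearly the same amount, with log2 differences of −0.65 and −0.69. The fitted log2 change was −0.67 ± 0.54 (SE), with limma adjusted p = 0.979. PHO81 (YGR233C), the inhibitor of Pho80-Pho85 and itself a target of Pho4, measured 221.1 and 161.1 in wild type against 163.1 and 148.4 in pmt1 pmt2. Its groups overlapped narrowly, and wild type array 1 stood highest. The log2 change was −0.28 ± 0.36 (SE), with limma adjusted p = 0.994.

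SPL2 (YHR136C), whose protein restrains low-affinity uptake when phosphate is scarce, was below background on every array. Its signals were 1.1 and 7.9 in wild type against 8.6 and 11.7 in pmt1 pmt2, so no fold is given. Wild type array 1 was the low one. The limma adjusted p was 0.834. Leaving out wild type array 2 made SPL2 the single phosphate gene to be called in any of 11 alternatives (adjusted p = 0.00561), in a comparison of values that all lie under background.

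More of the phosphate genes were higher than lower in pmt1 pmt2, by differences that did not pass the test. Both mutant arrays lay above both wild type arrays for 5 of the 10 genes (PHO5, PHO8, PHO89, SPL2 and VTC3), where 18.5% of all genes did. For 0 of the 10 did both lie below, where 14.7% of all genes did. Within both array numbers 6 genes were higher, where 31.9% of all genes were. PHO81 and PHO4 were lower within both, where 31.0% of all genes were. Without SPL2, which was below background, 4 of the other 9 genes had both mutant arrays above both wild type arrays. Of those 9 genes, 5 were higher within both array numbers. VTC1 and VTC4 had differences of opposite sign in the array numbers. The median log2 change was 0.32 over the 10 genes and 0.027 over all genes, while the median SE was 0.38 and 0.40. Over the 9 genes above background the median was 0.21, over the 5 with a mean log2 signal of at least 6 it was 0.088, and after setting every log2 signal under 4 to 4 it was 0.15 over the 10. Median changes within arrays 1 and 2 were 0.27 and 0.39 for the phosphate genes, against −0.15 and 0.21 for all genes. Of the 10 genes, 7 had their highest signal on pmt1 pmt2 array 2, the array with the highest median, and so did 48.7% of all genes. The part of that array in these differences was not tested beyond leaving it out, when the median was 0.23 over the 10 genes and −0.14 over all genes.

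**Figure D3:**
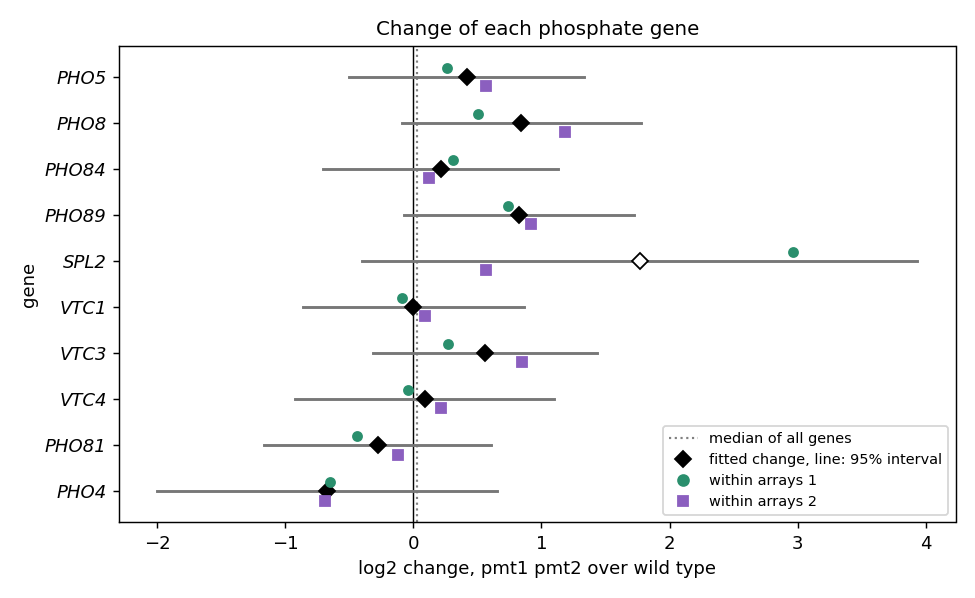
Log2 change (pmt1 pmt2 over wild type) of each phosphate gene: diamonds are fitted changes (open for SPL2, below background), lines are 95% intervals, circles and squares are differences within arrays 1 and 2, and the dotted line is the median of all genes (0.027). Every interval crosses 0, and PHO89 and PHO8 have the lower ends closest to it.

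Distances between arrays over the 10 genes overlapped between replicates and genotypes. The median absolute log2 difference was 0.36 between the wild type arrays and 0.45 between the pmt1 pmt2 arrays. Between a wild type and a mutant array it was 0.35 to 0.64, lowest between wild type array 2 and pmt1 pmt2 array 1. Over all genes the same measure was 0.40 between wild type arrays, 0.53 between mutant arrays, and 0.32 to 0.58 across genotypes. For the phosphate genes, wild type array 1 and wild type array 2 were both about as close to pmt1 pmt2 array 1 (0.37 and 0.35) as to each other, and pmt1 pmt2 array 2 lay farthest from them.

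**Figure D4:**
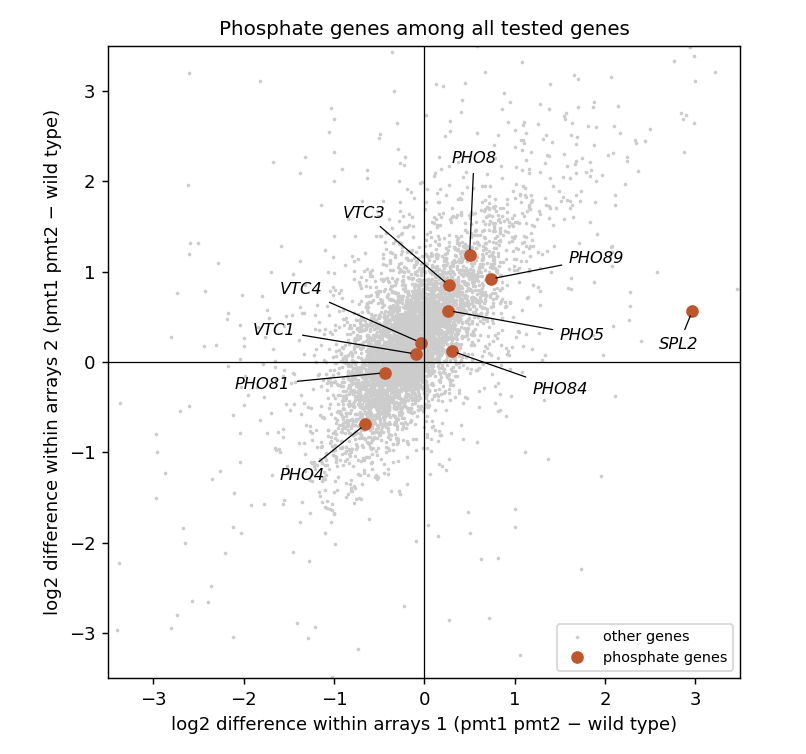
Log2 difference between pmt1 pmt2 and wild type within arrays 1 (horizontal) and within arrays 2 (vertical) for all tested genes (grey) and the 10 phosphate genes (orange); 36 genes beyond 3.5 in either direction are not drawn. All but SPL2, whose position below background is no measured size, lie inside the main cloud of genes, with PHO8 and PHO89 at its upper right and PHO4 at its lower left.

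Genes whose values over the 4 arrays ran most like those of PHO89 and PHO8, the members with the smallest p, were looked up among 3534 other genes with a mean log2 signal of at least 6. Likeness was the Euclidean distance between log2 values centred on each gene's mean, and with 4 arrays it is a description only. Nearest to PHO89 were QCR10, for a subunit of respiratory complex III (distance 0.0457), FPR2, for a prolyl isomerase of the endoplasmic reticulum (0.0499), and MUP1, for a methionine permease (0.0879). Nearest to PHO8 were PXP2 (0.0476), ATP5, for a subunit of the mitochondrial ATP synthase (0.0796), and YPL229W (0.102). Being picked for values like those of PHO89 and PHO8, these 6 genes necessarily had similar limma adjusted p, between 0.723 and 0.809. Genes next to the phosphate genes on the chromosome were also read. The 18 neighbours tested had a median log2 change of 0.021. Of these, 0 were called by limma at an adjusted p under 0.05, where 0.389% of all genes were. At an unadjusted p under 0.05, 1 neighbour passed, where 7.18% of all genes did. That gene, named after its values were seen, was PCA1 (YBR295W), next to PHO89, which encodes a cadmium-transporting ATPase and had a log2 change of 1.29 ± 0.49 (SE).

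Other genes of phosphate handling were read from 5 lists of 39 names, of which 37 were tested. PHO11 and PHO12, acid phosphatase genes nearly identical in sequence, share a probe set and were not tested. That probe set measured 36.7 and 29.4 in wild type against 26.2 and 61.7 in pmt1 pmt2, with the mutant arrays on either side of the wild type ones. By limma without a block, 0 of the 37 genes were called at an adjusted p under 0.05. At an unadjusted p under 0.05, 5 were higher (GPP2, PHM8, PIC2, DIA3 and IPK1) and 0 lower. Of all 5656 genes, 304 were higher and 102 lower at that threshold (7.18% in either direction). Of the 27 genes above background on all 4 arrays, 2 (GPP2 and PIC2) were among these 5 and 0 were lower, a share in either direction near that of all genes. The median log2 change was 0.070 over the 37 genes and 0.021 over those 27.

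Other Pho4-dependent genes were often dim. Of the 9 tested, 4 were above background on all 4 arrays, GPP2, GDE1, PHO86 and VTC2, with a median log2 change of 0.32. For 5 of the 9 both mutant arrays lay above both wild type arrays (18.5% of all genes). Of those 5, GPP2 and GDE1 were above background on all 4 arrays. GPP2 (YER062C, listed as HOR2) encodes a glycerol-phosphate phosphatase that is also known as an osmotic stress gene. It measured 108.7 and 209.1 in wild type against 314.6 and 744.8 in pmt1 pmt2, a log2 change of 1.68 ± 0.56 (SE) with limma adjusted p = 0.544, and 0.0223 with array number as a block. Its groups were separate, and the differences were similar within arrays 1 (1.53) and arrays 2 (1.83). PHM8 (YER037W), for a phosphatase of lysophosphatidic acid and nucleotides, measured 11.6 and 4.8 in wild type against 21.0 and 33.5 in pmt1 pmt2 (limma adjusted p = 0.427). A single array of PHM8, pmt1 pmt2 array 2, was above background, so no fold is given. CTF19 (YPL018W), the chromosomal neighbour of VTC3 and a gene of the kinetochore, was below background on all 4 arrays. GDE1, for a glycerophosphocholine phosphodiesterase and named here after its values were seen, measured 62.3 and 64.4 in wild type against 99.0 and 108.4 in pmt1 pmt2. VTC2, the paralogue of VTC3 and likewise named after its values were seen, had a log2 change of −0.11 with overlapping groups, and PHO86, named likewise, one of −0.071. GIT1 was below background on all 4 arrays.

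**Figure D5:**
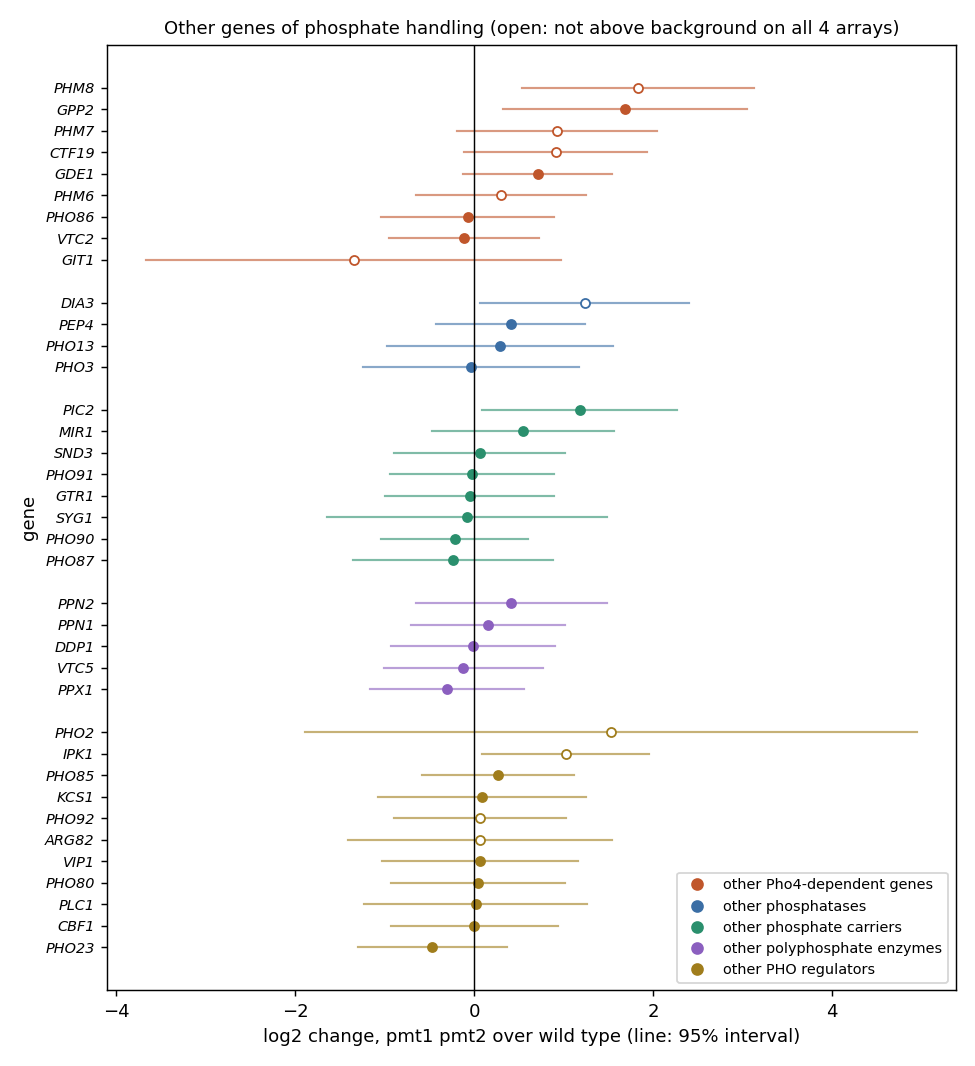
Log2 change (pmt1 pmt2 over wild type) with 95% intervals for the 37 other genes of phosphate handling, coloured by list; open points mark genes with at least 1 array not above background. Among the filled points GPP2 and PIC2 lie farthest right, and most genes of the carrier, polyphosphate and regulator lists lie near 0.

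The list of other phosphate carriers, which held GTR1 and SND3 (listed as PHO88) beside transporter genes, had a median log2 change of −0.035 over 8 genes. PIC2 (YER053C), for a mitochondrial carrier of phosphate and copper, measured 151.1 and 74.5 in wild type against 253.5 and 227.8 in pmt1 pmt2 (limma adjusted p = 0.652). Wild type array 2 was at 0.493 of wild type array 1, and both mutant arrays lay above them. MIR1 (YJR077C), for the main mitochondrial phosphate carrier, measured 1698.6 and 2240.3 against 2183.6 and 3713.6, with overlapping groups. PHO90 (YJL198W), for a low-affinity transporter of the plasma membrane, measured 1558.6 and 1630.2 against 1393.9 and 1350.7. Its groups were separate toward lower values, but the log2 change was −0.22 ± 0.34 (SE).

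The list of other phosphatases held 3 phosphatase genes, with a median log2 change of 0.29, and PEP4, for a protease that acts on Pho8. DIA3 (YDL024C), for a protein related to acid phosphatases, measured 29.5 and 13.2 in wild type against 43.0 and 50.2 in pmt1 pmt2 (limma adjusted p = 0.662). Wild type array 2 was below background there. PEP4 (YPL154C), the vacuolar protease that matures Pho8, measured 2653.9 and 2373.8 against 3231.6 and 3451.6, with separate groups and a log2 change of 0.41 ± 0.34 (SE). PHO13 (YDL236W), a phosphatase that clears damaged metabolites, had overlapping groups and a log2 change of 0.29. PHO3 (YBR092C), the constitutive acid phosphatase gene next to PHO5, named after its values were seen, measured 4844.7 and 2255.8 in wild type against 4017.4 and 2601.4 in pmt1 pmt2, with overlapping groups.

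Polyphosphate enzymes outside the 10 genes had a median log2 change of −0.013 over 5 genes. The exopolyphosphatase gene PPX1 (YHR201C) measured 194.0 and 161.7 against 131.5 and 156.9, a log2 change of −0.30 ± 0.35 (SE). The endopolyphosphatase genes PPN1 (YDR452W) and PPN2 (YNL217W) had log2 changes of 0.16 and 0.42, both with overlapping groups. Regulators outside the 10 genes had a median of 0.070 over 11 genes. PHO23 (YNL097C), of the Rpd3L histone deacetylase complex, measured 56.0 and 57.2 against 38.6 and 43.6 (limma adjusted p = 0.966). The homeobox gene PHO2, whose protein acts with Pho4, and the inositol phosphate kinase gene IPK1 were below background on all 4 arrays. The genes of the kinase that Pho81 inhibits, named after their values were seen, gave small differences. PHO85 (YPL031C) measured 182.7 and 183.4 against 198.7 and 244.1, and the cyclin gene PHO80 (YOL001W) measured 76.1 and 79.4 against 62.1 and 103.3.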

How the data were processed

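The deposited table holds 1 intensity per probe set and array, in linear units with 1 decimal, for 9335 probe sets. Per the submitters' processing notes the authors used GCRMA. GCRMA does not usually give zeros, which the table contains, so the summary behind these intensities and any scaling between arrays are uncertain. The log2 of each intensity was used, zeros being replaced by 0.1, without further normalization. Probe sets naming 1 gene (6504) were kept, with the highest mean log2 value deciding among several, which left 5656 genes. Names came from the platform annotation and the R64 gene table. The group comparison used limma 3.58.1 under R 4.3.3, with two-sided moderated tests (eBayes) and Benjamini-Hochberg adjustment over all 5656 genes. The code was tested on simulated data. For 1 gene, an exact permutation test at 2 against 2 arrays cannot go below p = 0.333, and the number of arrays limits the precision.

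The members and lists were chosen with earlier results of these data known. Named genes were the 10 members, PMT1 and PMT2, up to 3 genes per other list with the smallest p, and the 3 genes nearest in pattern to each of 2 members. Alternatives were quantile normalization, centring, a minimum mean log2 value of 6, raising log2 values to 4, averaging probe sets, a mean-variance trend, a replicate block and leaving out each array. Promoter sequences were not used here, so a planned search for Pho4 motifs was not run.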

Additional observations from a re-analysis of the deposited data

How the results depend on the processing

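Over 11 alternatives, 97 of 105 values for single phosphate genes kept their direction, or became 0, without passing the threshold. SPL2, below background, was called in one. Signs turned for VTC1 (0.067 after quantile normalization, −0.17 to 0.17 with 1 array left out), VTC4 (−0.033 with averaged probe sets, −0.27 to 0.44 with 1 array left out) and PHO84 (−0.033 to 0.46 with 1 array left out). The causes were not tested. The count of phosphate genes called was 0 in all alternatives but those leaving out 1 array, where it was 0 to 1. Their median log2 change was 0.088 with the minimum of 6, which left 5 of them, 0.15 with low values raised to 4, and 0.23 to 0.53 with 1 array left out. The median over all genes moved as well. It was 0.24 without pmt1 pmt2 array 1, where the phosphate genes had 0.53, and −0.14 without pmt1 pmt2 array 2, where they had 0.23. At an unadjusted p under 0.05, 4 phosphate genes passed with the block, when 1016 of all 5656 genes did. After quantile normalization 2 passed, and after centring 2, when 509 and 488 of all genes did. With low values raised to 4, 1 passed (PHO89), when 532 of all genes did. Over all genes, 22 were called, against 2 after quantile normalization, 38 with the minimum of 6, 1 with low values raised to 4, and 0 to 62 with 1 array left out.

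Both groups have arrays numbered 1 and 2, but the labels do not say that these mark a shared day or batch. Deviations from the group means correlated between same-numbered arrays at r = 0.65 over 5656 genes, and at r = 0.83 over the 3539 with a mean log2 signal of at least 6. Fitting array number as a replicate block, 171 genes and 0 phosphate genes were called, the lowest adjusted p among the latter being 0.128 (SPL2), and 1 of the 37 other phosphate handling genes, GPP2, was called (limma adjusted p = 0.0223). Signals near the background of 26.2 limit PHO5, PHO84, PHO89 and PHO4.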
